A study of Saccharomyces cerevisiae with 8 samples.

Results

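Budding yeast without UPF1 was compared with wild type (WT) after a 15 min exposure to DMSO, the solvent control of the study, so that RNA levels were read while translation was running. The comparison was set by the library labels and used 4 of the 8 libraries of the study, 2 biological replicates of WT in DMSO and 2 of upf1 in DMSO. All strains were BY4741, of mating type MATa, and carried his3Δ1, leu2Δ0, met15Δ0 and ura3Δ0. The upf1 strain carried upf1*::kanMX4 in addition. Cultures were in YPD at 30 °C and an OD600 of 0.5 when DMSO was added. All RNA, WT and upf1 alike, had been digested with Terminator, an exonuclease that removes RNA with a 5′ monophosphate and leaves capped RNA, before stranded libraries were made. The other 4 libraries came from the same strains treated with 100 µg/ml cycloheximide (CHX), a blocker of translation elongation. Undigested libraries were not analysed here, so more of an RNA, a larger capped share of it and a less complete digestion cannot be told apart.

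Nonsense-mediated decay (NMD) removes RNAs on which ribosomes stop early, such as mRNAs with premature stop codons, unspliced pre-mRNAs that reach the cytoplasm, mRNAs with upstream open reading frames, and many long non-coding RNAs that are read by ribosomes. The helicase Upf1 (encoded by NAM7) acts with Nmd2 and Upf3. In yeast, most of its targets are decapped and then degraded from the 5′ end by Xrn1, an exonuclease that, like Terminator, needs a 5′ monophosphate.

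Levels are the deposited densities multiplied by 1000, called scaled reads per kb. Reads assigned to features numbered 2395105 and 1311198 in the WT libraries and 2950600 and 2170558 in the upf1 libraries. The median over protein-coding genes was 11 and 7 reads in WT and 27 and 18 in upf1. The RNA SCR1 took 17.7% and 17.1% of the reads in WT and 13.1% and 11.4% in upf1. Changes are log2 differences of the level plus 2 scaled reads per kb, upf1 minus WT, with a standard error (SE) and a two-sided limma p-value adjusted over 10392 features by the Benjamini-Hochberg method. A feature "rose" or "fell" where the adjusted p was below 0.05. On this scale the change of genes with few reads is understated where a read is worth less than the added 2 scaled reads per kb. In short features a read is worth more than that. There a change to or from no reads rests on the added value and can be overstated. The WT libraries were the shallower group by median reads, and the part of depth and of the SCR1 share in the counts below was not tested. In bulk cultures, fewer cells with an RNA and less of it per cell cannot be told apart. The 7 MATa-specific genes listed summed to 8245 and 8106 scaled reads per kb in WT and 8198 and 6023 in upf1. The 4 MATalpha-specific genes summed to between 10.1 and 30.9 in the DMSO libraries.

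The targeted gene was read first. NAM7 (YMR080C, chromosome XIII, 426712 to 429627, minus strand, R64) was at 14.8 and 15.2 scaled reads per kb in the WT libraries and at 5.94 and 2.80 in the upf1 libraries. Both upf1 values lay below both WT values, but neither was 0. NAM7 fell by 1.46 (log2, SE 0.386, adjusted p = 0.0439). The counted feature was 3401 bases long, longer than the open reading frame (ORF), and 35 reads were assigned to it in upf1 against 85 in WT. This call ended in every fit that left out 1 library, with adjusted p between 0.0528 and 0.138, the highest without upf1 DMSO 2. Its neighbours SEC14, a phosphatidylinositol transfer protein (0.40, adjusted p = 0.568), and ISF1 (0.18, adjusted p = 0.809) did not pass the test. HIS3, whose his3Δ1 allele all strains carry, was at 37.8 and 37.6 in WT and at 119 and 88.4 in upf1. HIS3 rose by 1.40 (SE 0.241, adjusted p = 0.012), and the call ended without upf1 DMSO 1 (adjusted p = 0.0754). LEU2, MET17 and URA3 were not analysed here.

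Without UPF1, far more RNAs were higher than lower. Of the 10392 features tested, 1524 rose, which is 14.7%, and 41 fell, which is 0.395%. Of 5517 protein-coding genes tested, of 5925 in the table, 726 rose (13.2%) and 14 fell (0.254%), and the median change was 0.51, a 1.42-fold higher level. The median moved with the scaling. When libraries were scaled to equal medians in place of the deposited factors, the protein-coding median became -0.09, and 212 protein-coding genes rose (3.84%) while 153 fell (2.77%). Of all features, 663 then rose (6.38%) and 245 fell (2.36%). Of the 1524 that rose with the deposited factors, 616 also rose with median scaling, and all 41 that fell did so there too. Each change below can be set against the protein-coding median of 0.51. Under the deposited factors the snoRNAs, small nucleolar RNAs that guide the modification of ribosomal RNA, had a median change of -0.04.

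How many calls were made rested on single libraries. Without upf1 DMSO 1, the deepest of the DMSO libraries, 214 features rose, and 12 fell. The count of rises was 782 without WT DMSO 2, 999 without upf1 DMSO 2, 714 without upf1 CHX 1 and 734 without upf1 CHX 2. The CHX libraries enter these counts through the variance estimate that all 8 libraries share. Falls numbered 18 without WT DMSO 1, 24 without upf1 DMSO 2 or upf1 CHX 1 and 26 without upf1 CHX 2. Of the 1524 features, 202 rose in every fit that left out 1 library, among them 78 protein-coding genes. With the 4 DMSO libraries fitted alone, limma called 0 features in either direction, with 2602 at an unadjusted p below 0.05, and voom on the recovered reads of all 8 libraries gave 1449 rises and 34 falls.

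Of the classes of long non-coding transcripts, XUTs and SUTs rose at a higher share than the 14.7% of all features, and CUTs and NUTs at a lower one. XUTs, antisense or intergenic transcripts known for their degradation by Xrn1, had a median change of 0.88, and 327 of 1373 tested rose (23.8%) while 2 fell. SUTs, stable unannotated transcripts, had a median of 1.03, and 233 of 705 rose (33.05%). For CUTs, cryptic unstable transcripts that the nuclear exosome removes, the median was 0.37, and 44 of 756 rose (5.82%) while 3 fell. For NUTs, transcripts that are extended when the termination factor Nrd1 is lost, it was 0.48, with 142 of 1243 higher (11.4%). With median scaling these medians were 0.72, 0.76, 0.00 and 0.18. Without upf1 DMSO 1 the rises numbered 60 XUTs, 44 SUTs, 6 CUTs and 8 NUTs, and without WT DMSO 2 176, 129, 30 and 54. Without upf1 CHX 1 they numbered 179, 128, 22 and 62. No test of the difference between classes was made. In the WT libraries the median tested XUT had 1 and 0 reads, and the median tested SUT 2 and 1. The median tested CUT had 2 and 0, the median NUT 3 and 1 and the median protein-coding gene 13 and 9. The part of these low counts in the shares and medians was not tested. The catalogues overlap, so a transcript can be counted in more than 1 class.

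**Figure D1:**
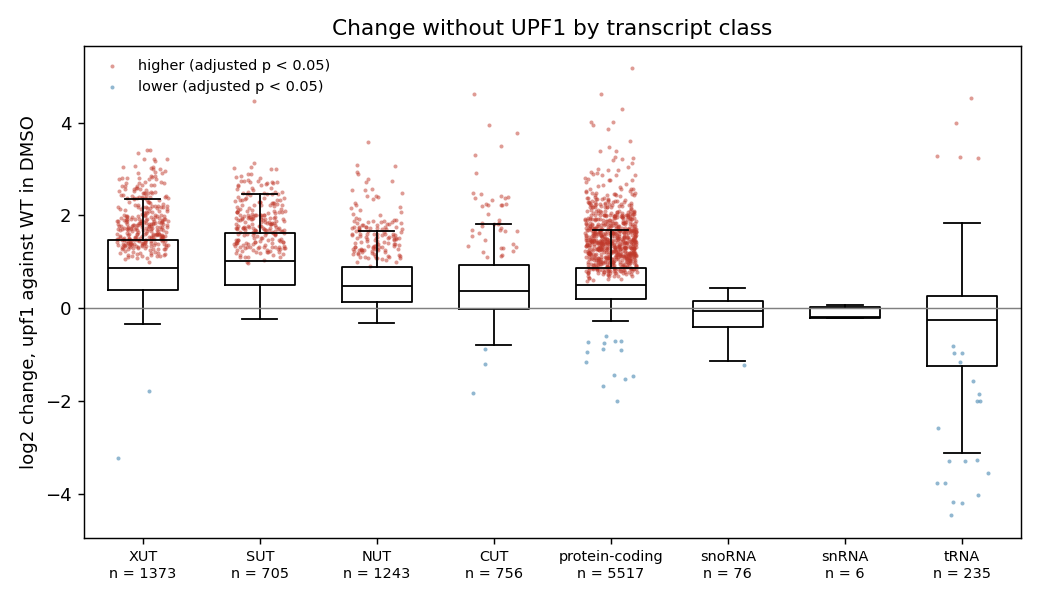
Log2 change of tested features, upf1 against WT in DMSO, by transcript class (boxes: quartiles and median; whiskers: 5th to 95th percentile; points: features that rose or fell). The SUT box, with a median of 1.03, and the XUT box, at 0.88, sit above the protein-coding box at 0.51, and the snoRNA box is centred near 0.

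Summed over whole classes, XUTs and SUTs were higher in both upf1 libraries than in both WT libraries. All 1628 XUTs together gave 4082 and 3613 scaled reads in the WT libraries and 13969 and 11228 in the upf1 libraries, a log2 change of 1.71 ± 0.18 (SE, n = 2 against 2). The 835 SUTs gave 2683 and 2249 in WT and 8899 and 6822 in upf1, a change of 1.67 ± 0.23. CUTs gave 2817 and 2322 in WT and 3103 and 2829 in upf1, with the lowest upf1 value just above the highest WT value, a change of 0.21 ± 0.154 that turned to -0.53 with median scaling. Protein-coding genes summed to 1188386 and 1166146 in WT and to 1402564 and 1168016 in upf1, so that 1 upf1 library lay between the WT libraries, a change of 0.12 that turned to -0.62 with median scaling. With that scaling the XUT sum was 1.95-fold higher, beside 3.26-fold with the deposited factors, and the SUT sum 1.90-fold, beside 3.17-fold. The smallest two-sided p that an exact permutation test of 2 against 2 libraries can give is 0.333, so none of these sums can pass a threshold of 0.05.

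Among the non-coding transcripts that rose furthest, XUT0974 was at 2.39 and 4.25 scaled reads per kb in WT and at 57.8 and 49.9 in upf1, a change of 3.41 (SE 0.289, adjusted p = 0.00275). XUT0962 rose by 3.42 with 1 read in WT and 32 in upf1, a ratio of 23.4 with an exact 95% interval of 3.90 to 952. SUT638 rose by 4.47, from 1 read to 36, a ratio of 26.3 (4.43 to 1067), and SUT308 by 3.12, from 2 reads to 38, a ratio of 13.9 (3.59 to 119). CUT361 and CUT530 had 0 reads in WT and 12 and 7 in upf1. Set against a floor of 3 reads over the WT group, CUT361 was at least 2.92-fold and CUT530 at least 1.70-fold higher. NUT0671 had 0 reads in WT and 9 in upf1, at least 2.19-fold higher, and NUT0036 had 1 and 30, a ratio of 21.9 (3.64 to 894). These intervals and floors cover counting error only, and each of these transcripts except SUT308 kept its call in all fits that left out 1 library. SUT308 lost it without upf1 DMSO 1 (adjusted p = 0.067).

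Falls among the non-coding transcripts were few, apart from tRNAs. XUT0586 was at 28.9 and 25.7 scaled reads per kb in WT and at 0 and 2.94 in upf1 (15 reads against 1), a fall of 3.22 (SE 0.467, adjusted p = 0.00765). XUT1358 and CUT282 had 2 reads each in WT and 0 in upf1, too few to give a fold. The snoRNA snR52 (chromosome V, 431129 to 431220, minus strand) was at 2154 and 1229 scaled reads per kb in WT and at 606 and 797 in upf1. It fell by 1.22 (SE 0.299, adjusted p = 0.035), and was the only snoRNA of 76 that passed the test in either direction, although the call held in only 1 of the 8 fits that left out 1 library. CUT567 had 291 reads over the WT libraries and 154 over the upf1 libraries, beside 280 and 146 for snR52. CUT567 fell by 1.20, a call also held in 1 of those fits. No coordinates of CUT567 were at hand, so whether it overlaps snR52 and shares its reads was not checked. Of 235 tRNA features, 5 rose (2.13%, beside 14.7% of all features) and 19 fell (8.09%, beside 0.395%). Their total was 662 ± 51.7 scaled reads in upf1 and 989 ± 173 in WT (SD, n = 2). These calls lie near the floor, since the median tRNA feature had 1 and 0 reads in the WT libraries and 1 and 1 in the upf1 libraries. With voom, 1 tRNA feature rose and 10 fell.

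The 12 protein-coding genes with the largest rises had between 0 and 14 reads over both WT libraries, the most in DAL7. NIT1, a nitrilase gene (YIL164C, chromosome IX, 34087 to 34686, minus strand), was at 3.12 and 2.77 scaled reads per kb in WT and at 72.7 and 66.7 in upf1. NIT1 rose by 3.86 (SE 0.226, adjusted p = 0.0017), and with 3 reads in WT and 96 in upf1 its ratio was 23.4 (exact 95% interval 7.76 to 115). The ORF downstream of it on the same strand, YIL165C (33718 to 34077), had 0 reads in both WT libraries and was at 65.1 and 21.2 in upf1. YIL165C rose by 4.30 (SE 0.457, adjusted p = 0.00346) and was at least 9.01-fold higher. Both ORFs rose in every fit that left out 1 library.

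These ORFs are read as a single nitrilase gene in other strains of the species, with a stop codon between them in this genome. The junction is shown because the stop codon and the next start codon stand in a single reading frame. In the R64 sequence of RefSeq, on the minus strand (chrIX:34048-34116), with the stop codon of NIT1 and the start codon of YIL165C in capitals, it reads as follows.
NIT1 to YIL165C: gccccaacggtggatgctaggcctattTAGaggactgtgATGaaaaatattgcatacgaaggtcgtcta
A search for such pairs, made after these values were seen and therefore without a test, took neighbouring ORFs on a strand joined in frame over at most 150 bases with no other stop codon in frame. It found 12 pairs, 11 with both ORFs tested, and both ORFs rose in 3 of these, among them the nitrilase pair, which was known before the search. In 4 other pairs 1 ORF rose. Of all single protein-coding genes 13.2% rose, and the share among ordinary neighbouring pairs was not counted. Beside the nitrilase pair, YER039C-A and HVG1 rose by 1.42 and 1.29, and YNR066C and YNR065C by 1.27 and 1.18. For these 4 ORFs the fits that left out 1 library are not reported here. In the pair of YOL163W and YOL162W, only YOL163W passed the test (1.79, adjusted p = 0.032), and YOL162W had a change of 1.30 (adjusted p = 0.104). In the pair of NFT1, an ABC transporter of the vacuole, and YKR104W, neither passed, at 1.40 (adjusted p = 0.0505) and 1.12 (adjusted p = 0.117). The junction of YER039C-A and HVG1 (chrV:229176-229292) and that of YNR066C and YNR065C (chrXIV:753671-753754), both on the minus strand, are shown with the same marks, since all 4 of these ORFs rose.
YER039C-A to HVG1: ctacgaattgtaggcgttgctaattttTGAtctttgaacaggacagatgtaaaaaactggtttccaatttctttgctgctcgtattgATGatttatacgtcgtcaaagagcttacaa
YNR066C to YNR065C: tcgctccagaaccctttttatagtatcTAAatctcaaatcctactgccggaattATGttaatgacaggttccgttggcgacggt

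The other large rises were a mixed group. YDR003W-A, a short ORF of no known function, had the largest change of all protein-coding genes, 5.17 (SE 0.402, adjusted p = 0.00229), on 0 reads in WT and 12 and 8 in upf1, at least 4.87-fold higher. YCR101C had 0 reads in WT and was at 29.4 and 31.2 scaled reads per kb in upf1, at least 9.25-fold higher. AAD4, of the aryl-alcohol dehydrogenase family, had 0 reads in WT and was at 39.2 and 23.1 in upf1, at least 17.5-fold higher. COS12, of a family of endosomal membrane proteins encoded near chromosome ends, was at 2.35 and 0 in WT and at 51.5 and 36.7 in upf1, a ratio of 29.7 (9.93 to 146) on 3 and 122 reads. MDJ2, a J-domain co-chaperone of the mitochondrial import motor, was at 2.12 and 0 in WT and at 42.1 and 25.9 in upf1, a ratio of 25.6 (4.30 to 1038) on 1 and 35 reads. In none of these genes did a WT library reach the level of an upf1 library, which was part of the rule that chose them. YPL152W-A (4.62), YOR161C-C (3.39) and YGL007C-A (3.47) rose on 11, 7 and 4 reads in upf1 and 0 in WT. YPL152W-A kept its call in only 2 of the 8 fits that left out 1 library, and YOR161C-C lost it without upf1 DMSO 1 (adjusted p = 0.0786).

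**Figure D2:**
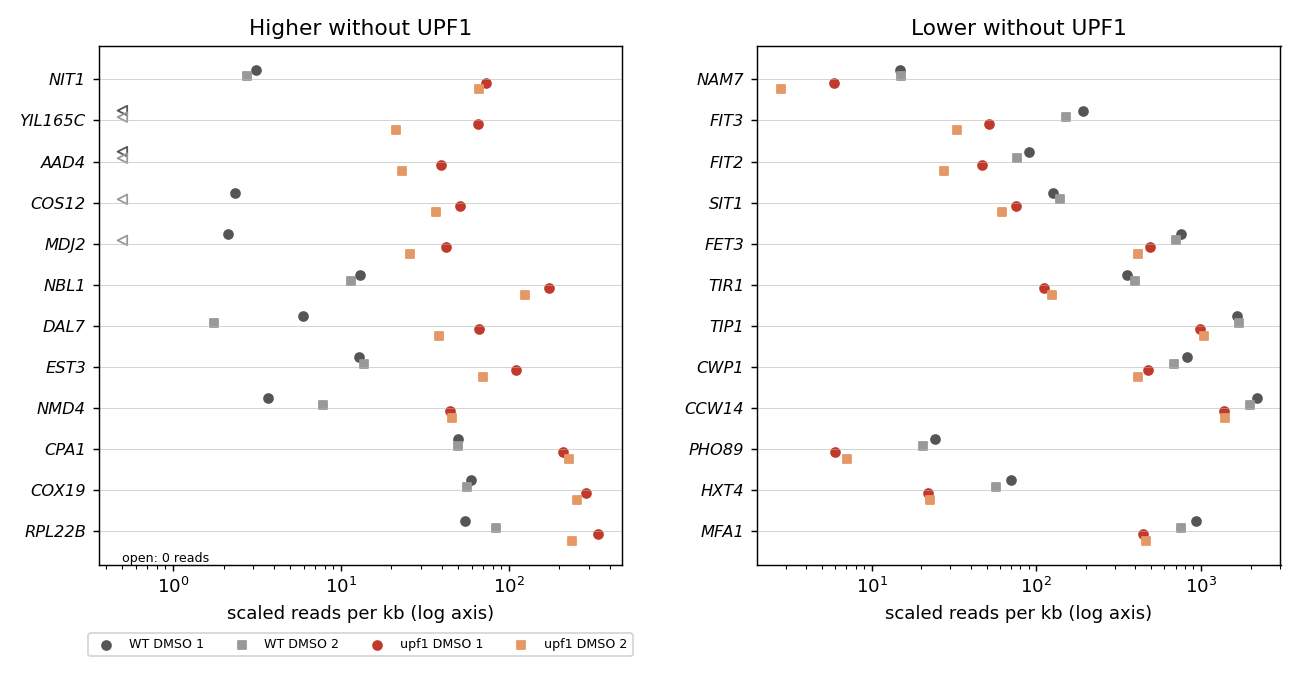
Scaled reads per kb (log axis) in each DMSO library for 12 protein-coding genes that rose and 12 that fell; open triangles at the left edge mark libraries with 0 reads. In each of the 24 genes the WT values (grey) and the upf1 values (red and orange) do not overlap, with NIT1 at 3.12 and 2.77 against 72.7 and 66.7 and FIT3 at 192 and 151 against 51.8 and 32.7. All 24 were chosen for a call in these libraries, so the lack of overlap describes them and adds no support.

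Among the NMD factors other than NAM7, 2 genes rose. NMD4, which encodes a PIN-domain protein bound to Upf1, was at 3.67 and 7.84 scaled reads per kb in WT and at 44.4 and 45.7 in upf1. It rose by 2.65 (SE 0.302, adjusted p = 0.00397), in every fit that left out 1 library. EBS1, a relative of the SMG proteins of animal NMD, was at 0.892 and 3.70 in WT and at 10.8 and 10.0 in upf1, a rise of 1.61 (SE 0.404, adjusted p = 0.0382) that was kept in only 1 of those 8 fits. For both genes the upf1 values lay above the WT values. NMD2 did not pass the test (0.56, adjusted p = 0.386), and UPF3, with 1 read in each group, was below the level needed to enter it. Of 18 genes of the general mRNA decay machinery, such as decapping and deadenylation factors, 0 passed in either direction with limma. At an unadjusted limma p below 0.05 there were 3, and voom called 0. The median change of the 18 was 0.26. Over all protein-coding genes 13.2% rose and 0.254% fell, with a median of 0.51.

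A list of 23 mRNAs known from earlier work as NMD substrates held 10 that rose, which is 43.5% beside 13.2% of all protein-coding genes. Their median change was 1.13 beside 0.51. The list was drawn from general knowledge of the field, with earlier results of these data known. CPA1, the small subunit of the arginine-specific carbamoyl phosphate synthetase, was at 49.9 and 49.8 scaled reads per kb in WT and at 209 and 229 in upf1, a 4.26-fold rise (2.09, SE 0.177, adjusted p = 0.00275). Translation of its upstream ORF stalls with arginine, and that ORF, annotated as YOR302W (chromosome XV, 882765 to 882842), was at 52.3 and 49.96 in WT and at 245 and 260 in upf1. YOR302W rose by 2.26 (SE 0.17, adjusted p = 0.00229). Both features lie on a single mRNA, so their values are not independent, and within each group the replicates were close.

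The other substrates that rose included NIT1, described with the ORF pairs, EST3 and STN1, described with the telomere genes, COX19 with the copper genes, DAL7 with the nitrogen genes, and RPL22B, RPL28 and REC107 with the intron genes. ALR1, a magnesium transporter of the plasma membrane, was at 10.7 and 10.0 in WT and at 27.9 and 20.5 in upf1, a rise of 1.07 (adjusted p = 0.0451) that was kept in only 2 of the 8 fits that left out 1 library (adjusted p up to 0.209, without upf1 DMSO 1). Substrates that did not pass the test had changes between 0.22, for the vacuolar copper transporter CTR2, and 1.64, for the telomere capping gene TEN1 (adjusted p = 0.0823). In 21 of the 23 the upf1 values lay above the WT values, beside 56.5% of all protein-coding genes. The count of rises was 7 without upf1 DMSO 1, 7 with median scaling and 16 with voom. Of 21 tested genes with described upstream ORFs, 1 rose, which was CPA1 (4.76% beside 13.2% of all protein-coding genes; 2 rose without upf1 DMSO 2), and GCN4 was at 82.7 and 111 in WT and at 340 and 136 in upf1 (1.15, SE 0.504, adjusted p = 0.166).

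Introns were examined because a pre-mRNA that is translated before it is spliced meets stop codons in its intron. Of 251 tested genes with an intron, 26 rose, which is 10.4% beside 13.2% of all protein-coding genes. Without the ribosomal protein genes it was 21 of 162, or 12.96%. The 26 became 4 without upf1 DMSO 1, 11 without WT DMSO 1, 13 without either WT CHX library, 8 without either upf1 CHX library and 7 with median scaling. With an intron as the choice, the share was thus near the background. The deposited values do not separate spliced from unspliced reads. NBL1, a subunit of the chromosomal passenger complex, was at 12.9 and 11.5 scaled reads per kb in WT and at 173 and 125 in upf1, a rise of 3.39 (SE 0.246, adjusted p = 0.00229). MAY24 was at 12.9 and 9.53 in WT and at 99.9 and 75.3 in upf1, a rise of 2.76 (adjusted p = 0.00275). RPL22B, a ribosomal protein gene whose protein binds its own pre-mRNA and inhibits its splicing, was at 54.9 and 83.5 in WT and at 341 and 237 in upf1, a rise of 2.04 (adjusted p = 0.00677). The upf1 values of these 3 genes were all above the WT values, and the 3 calls held in every fit that left out 1 library.

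RPL28, whose pre-mRNA (known as CYH2) is a standard reporter of NMD in yeast, was at 2452 and 2911 in WT and at 6690 and 4249 in upf1, a rise of 1.00 (SE 0.223, adjusted p = 0.0279), and it had the highest level of all protein-coding genes that rose. This call was kept in 1 of 8 fits that left out 1 library. REC107 and MEI4, meiotic genes with introns, rose by 1.67 (adjusted p = 0.0241) and 1.33 (adjusted p = 0.0419). The intron of REC107 needs the factor Mer1 to be spliced well. REC107 had 4 reads in WT and 30 in upf1, and MEI4 had 1 and 16, a ratio of 11.7 (1.82 to 490). Without upf1 DMSO 1 both calls ended, with adjusted p of 0.083 and 0.195, and over all 8 fits that left out 1 library they were kept in 3 and 0. YRA1 and DBP2, autoregulated through their introns, did not pass the test, at 0.55 (adjusted p = 0.304) and 0.47 (adjusted p = 0.312), and in both upf1 DMSO 2 lay close to the higher WT library.

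The first bases of 5 of these introns are shown to place the first stop codon. Each runs from 9 exon bases (5 in MAY24, where the intron follows the start codon closely), through the intron, to the first stop codon in frame with the exon. The first 6 intron bases and that stop codon are in capitals. The sequences are from R64 of RefSeq, at chrVIII:498731-498795 (minus strand) for NBL1, chrXVI:833689-833760 (plus) for MAY24, chrVI:64912-64929 (minus) for RPL22B, chrX:469184-469272 (minus) for REC107 and chrV:239661-239720 (minus) for MEI4.
NBL1: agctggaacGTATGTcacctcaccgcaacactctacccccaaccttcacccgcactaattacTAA
MAY24: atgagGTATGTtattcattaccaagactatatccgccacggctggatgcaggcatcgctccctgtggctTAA
RPL22B: gctccaaacGTACGTTAA
REC107: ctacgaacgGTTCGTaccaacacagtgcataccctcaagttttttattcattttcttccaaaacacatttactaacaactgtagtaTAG
MEI4: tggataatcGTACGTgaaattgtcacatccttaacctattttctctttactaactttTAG
NBL1 and MAY24 have the yeast consensus GTATGT at the 5′ end of the intron, and RPL22B, REC107 and MEI4 do not. Over the 26 genes that rose, 21 had GTATGT, beside 194 of all 266 genes with an intron. A stop codon in frame within the first intron was present in 24 of the 26 and in 255 of the 266. The branch site TACTAAC, searched on the sense strand of the intron, was present in 22 of the 26 and in 220 of the 266. Shares of this kind describe the letters and do not measure splicing.

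Telomere genes on the list of telomerase and telomere capping factors had a median change of 0.83, and 3 of 12 rose, beside 13.2% of all protein-coding genes; voom called 6. EST3, a telomerase subunit whose full protein needs a programmed ribosomal frameshift, was at 12.8 and 13.7 scaled reads per kb in WT and at 111 and 70.6 in upf1, a rise of 2.57 (SE 0.294, adjusted p = 0.00397). STN1, which caps telomeres with Cdc13 and Ten1, was at 2.29 and 2.04 in WT and at 23.7 and 12.8 in upf1, a rise of 2.23 (SE 0.323, adjusted p = 0.00763). Their WT and upf1 values did not overlap, and both calls held in every fit that left out 1 library. EST2, the reverse transcriptase, rose by 1.40 (adjusted p = 0.0318), a call kept in only 1 of the 8 fits that left out 1 library, with an adjusted p up to 0.161 without upf1 DMSO 1. EST1 (1.20, adjusted p = 0.0622) and TEN1 did not pass.

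Pyrimidine synthesis has been tied to NMD in yeast through PPR1, whose mRNA, encoding the activator of the URA genes, is an NMD substrate. PPR1 itself had 3 reads in WT and 18 in upf1, with a change of 0.91 that did not pass the test (SE 0.434, adjusted p = 0.196), and its ratio was 4.38 (exact 95% interval 1.28 to 23.2). Of the 9 genes of the list, 4 rose (44.4%, beside 13.2% of all protein-coding genes), with a median change of 0.91 beside 0.51. URA10, the minor orotate phosphoribosyltransferase, was at 14.9 and 8.46 in WT and at 38.7 and 38.8 in upf1, a rise of 1.61 (SE 0.285, adjusted p = 0.013). URA1, dihydroorotate dehydrogenase, rose by 1.24 (adjusted p = 0.0281), URA6, uridylate kinase, by 1.37 (adjusted p = 0.0304) and URA4, dihydroorotase, by 1.23 (adjusted p = 0.0343). URA2 (0.23), URA5 (0.08), URA7 (0.56) and URA8 (0.39) did not pass. Without upf1 DMSO 1 none of the 4 passed, and with median scaling none did; the count was 1 without WT DMSO 1, 2 without WT DMSO 2 and 1 without either upf1 CHX library.

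Copper genes had a median change of 0.63, and 4 of 20 rose, beside 13.2% of all protein-coding genes. COX19, a copper-linked assembly factor of cytochrome c oxidase, was at 59.8 and 56.0 in WT and at 288 and 253 in upf1, a 4.55-fold rise (2.19, SE 0.21, adjusted p = 0.00314) present in every fit that left out 1 library. PCA1, a P-type ATPase that exports cadmium, was at 2.95 and 0.873 in WT and at 21.2 and 14.5 in upf1, a rise of 2.38 (SE 0.357, adjusted p = 0.00845). CUP2, the copper-sensing transcription factor, rose by 1.44 (adjusted p = 0.0217), and CCS1, the copper chaperone of superoxide dismutase, by 0.87 (adjusted p = 0.0478), calls kept in 3 and 0 of the 8 fits that left out 1 library. The count was 1 without upf1 DMSO 1, where PCA1 had an adjusted p of 0.0614, and 2 without upf1 DMSO 2 or either upf1 CHX library.

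Genes for the use of allantoin and other poor nitrogen sources rose at 9 of 21 tested (42.9%, beside 13.2% of all protein-coding genes). Their median change was 0.92 beside 0.51. DAL7, a malate synthase of allantoin breakdown, was at 5.94 and 1.76 scaled reads per kb in WT and at 66.7 and 38.3 in upf1, a rise of 3.27 (SE 0.41, adjusted p = 0.0054). DAL2, allantoicase, was at 2.40 and 1.42 in WT and at 17.3 and 18.7 in upf1, a rise of 2.37 (adjusted p = 0.00825). The allantoate permease DAL5 (1.95), the urea permease DUR3 (1.43), ureidoglycolate hydrolase DAL3 (1.78), the activator DAL82 (1.71), the activator UGA3 (1.65) and the transaminase UGA1 (1.27) rose as well. In WT, all of these but UGA1 were below 10 scaled reads per kb. The count was 3 without upf1 DMSO 1, where DAL2 (adjusted p = 0.0555) and DAL5 (adjusted p = 0.0646) were among those that lost their calls, and 3 with median scaling. UGA1 was kept in 4 and UGA3 in 1 of the 8 fits that left out 1 library.

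Of 35 amino acid synthesis genes under Gcn4, 8 rose, a share of 22.9% beside 13.2% of all protein-coding genes. The median change of these 35 genes, 0.59, lay near that of all protein-coding genes and turned to -0.14 with median scaling. HIS5, a histidine synthesis transaminase, was at 17.9 and 16.6 in WT and at 90.4 and 62.1 in upf1, a rise of 2.00 (adjusted p = 0.00501). ARG8, an arginine synthesis transaminase, rose by 2.18 (adjusted p = 0.00786), and the asparagine synthetase ASN1 by 0.95 (adjusted p = 0.0152). HIS5 held in every fit that left out 1 library, while the count for the list was 1 without upf1 DMSO 1, 2 without WT DMSO 1 and 5 without WT DMSO 2 or any 1 CHX library. Proteasome genes were close together: 8 of 33 rose (24.2%, beside 13.2% of all protein-coding genes), all by 0.73 to 1.40, with a median of 0.73 over the list. PRE5, an alpha subunit of the core, was at 84.1 and 73.9 in WT and at 281 and 159 in upf1. None of the 8 rose without upf1 DMSO 1, without WT DMSO 2, without either upf1 CHX library or with median scaling, and the count was 1 without WT DMSO 1 or upf1 DMSO 2 and 4 without either WT CHX library. In sulfur and methionine metabolism 4 of 24 rose (16.7%, near the 13.2% of all protein-coding genes), with a median of 0.37, under that of all protein-coding genes. They included MET10, a sulfite reductase subunit (1.27, adjusted p = 0.00989, ended without upf1 DMSO 1 at 0.0576), and MET14, adenylylsulfate kinase (2.03, adjusted p = 0.00705). That count was 1 without upf1 DMSO 1 and 2 without any other DMSO library or either upf1 CHX library.

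**Figure D3:**
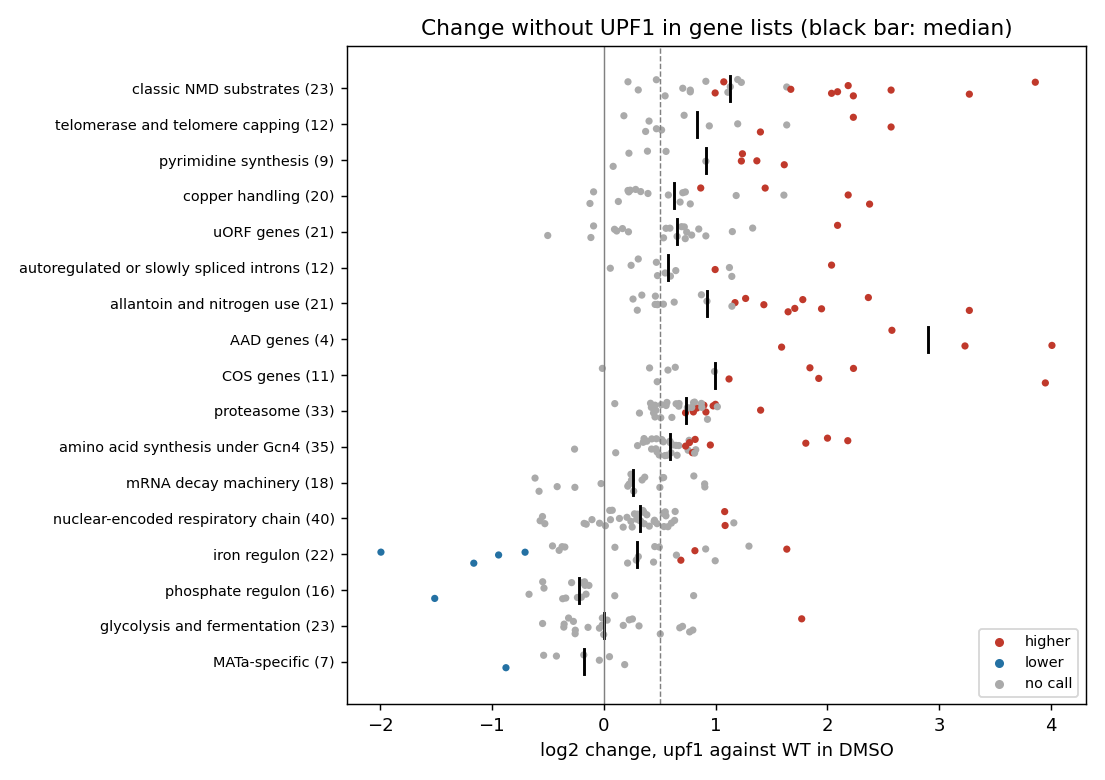
Log2 change, upf1 against WT in DMSO, of each tested member of 17 gene lists, with the number tested in brackets, the median as a black bar and the protein-coding median of 0.51 as a dashed line; small vertical offsets only separate points. Classic NMD substrates (median 1.13) and the AAD genes lie to the right, and the phosphate regulon (-0.22) and MATa-specific genes (-0.18) to the left of 0.

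Genes near chromosome ends were counted apart from the rest, with no test between the sets. Of 150 tested genes within 20 kb of an end, of 215 in the table, 52 rose (34.7%) and 1 fell, with a median change of 1.00, and of 5367 farther away 674 rose (12.6%), with a median of 0.50. The share fell with distance, from 19 of 50 within 10 kb and 33 of 100 between 10 and 20 kb to 53 of 258 between 20 and 40 kb and 404 of 3376 beyond 160 kb. With median scaling 33 of the 150 rose and 2 fell. The 52 became 7 without upf1 DMSO 1, 26 without WT DMSO 2, 33 without WT DMSO 1 and 30 without either upf1 CHX library. Genes there have low levels and near-identical copies, and how multiply mapping reads were counted is not given in the sources used here. All 4 tested AAD genes rose, AAD14 on 1 read in WT and 64 in upf1 (a ratio of 46.7, exact 95% interval 8.10 to 1875) and AAD10 on 0 and 20 (at least 4.87-fold higher). The call of AAD3 (limma adjusted p = 0.0424) ended in every fit that left out 1 library. Of 11 tested COS genes 5 rose, among them COS7 (1.92) and COS10 (1.84), and of 8 PAU genes 2 rose, on 5 and 3 reads in upf1. Over all protein-coding genes 13.2% rose. Without upf1 DMSO 1, 2 AAD, 2 COS and 0 PAU genes rose. The COS count was 3 without WT DMSO 2, upf1 DMSO 2 or any 1 CHX library, and the PAU count was 1 without any other DMSO library or either upf1 CHX library and 0 with voom.

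**Figure D4:**
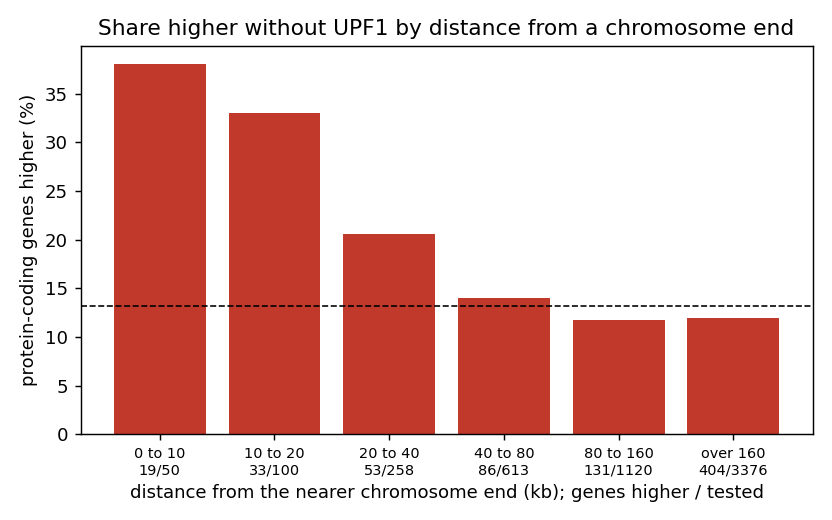
Share of tested protein-coding genes that rose, by distance to the nearer chromosome end (bars, in %, with counts under each), and the share over all genes (dashed line). The share falls from 38.0% within 10 kb to 11.97% beyond 160 kb.

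Some abundant mRNAs rose as well. RPL10, a protein of the large ribosomal subunit, was at 2369 and 2814 scaled reads per kb in WT and at 4842 and 4007 in upf1, a rise of 0.77 (SE 0.18, adjusted p = 0.0317). SSA2, a cytosolic Hsp70, was at 1493 and 1619 in WT and at 2630 and 3041 in upf1, a rise of 0.86 (SE 0.174, adjusted p = 0.0203). NCW1 (0.76), a cell wall protein gene, ILV5 (0.78), of branched-chain amino acid synthesis, EFB1 (0.66), of translation elongation, and AHP1 (0.61), a peroxiredoxin, were the others among the 8 called genes of highest level, which also hold RPL28 and CCW14. RPL10 and SSA2 kept their calls in 3 of the 8 fits that left out 1 library, NCW1 in 6, ILV5 and EFB1 in 1 and AHP1 in 0. Set against the protein-coding median of 0.51 these are small changes, and with median scaling none passed, EFB1 turning to -0.0795 and AHP1 to -0.13. Of 138 cytosolic ribosomal protein genes 7 rose (5.07%, beside 13.2% of all protein-coding genes), with a median of 0.48 (-0.26 with median scaling). This count was 1 without upf1 DMSO 1, 2 without WT DMSO 1 or either upf1 CHX library, 4 without WT DMSO 2 and 14 with voom. In 5 bins of protein-coding genes of equal size by level, from low to high, the share that rose was 4.98%, 12.4%, 15.6%, 18.8% and 14.04%.

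Only 14 protein-coding genes fell, 11 of them in the bin of highest level. The rule for named genes covers NAM7, FIT3, TIR1, PHO89, HXT4, FIT2, MFA1 and CCW14; the other 6 were named after their values were seen. FIT3 and FIT2 encode wall mannoproteins that help retain siderophore iron. FIT3 (chromosome XV, 1060441 to 1061055, minus strand) was at 192 and 151 scaled reads per kb in WT and at 51.8 and 32.7 in upf1, a fall of 1.99 (SE 0.378, adjusted p = 0.0166). FIT2, its neighbour, was at 90.7 and 76.0 in WT and at 46.8 and 27.6 in upf1, a fall of 1.16 (SE 0.287, adjusted p = 0.0365). SIT1, a siderophore transporter, fell by 0.94 (adjusted p = 0.0319) and FET3, the multicopper oxidase of high-affinity iron uptake, by 0.70 (adjusted p = 0.0295). In all 4 genes both upf1 libraries were below both WT libraries, a state found in 3.43% of all protein-coding genes. These 4 were chosen for their fall in the same libraries, so the lack of overlap adds no support.

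The iron regulon held both falls and rises. Of its 22 tested genes 4 fell (18.2%, beside 0.254% of all protein-coding genes). In the same list 3 rose (13.6%, near the 13.2% of all protein-coding genes), and the median was 0.30. With median scaling 6 of the 22 fell, beside 2.77% of all protein-coding genes. FRE3, a ferric reductase on the same stretch of chromosome XV as FIT2 (1055545 to 1057680 beside 1059531 to 1059992), was at 2.17 and 1.93 in WT and at 13.8 and 8.01 in upf1, a rise of 1.64 (adjusted p = 0.0239). The siderophore transporter ENB1 rose by 0.69 (adjusted p = 0.0422) and ISU2, an iron-sulfur cluster scaffold, by 0.82 (adjusted p = 0.0259). No iron gene fell without WT DMSO 1, upf1 DMSO 1 or upf1 DMSO 2, 1 fell without WT DMSO 2 or either upf1 CHX library, and 6 fell with median scaling. FIT3 was kept in 5 of the 8 fits, with an adjusted p of 0.0614 without WT DMSO 1, SIT1 and FET3 in 2 and FIT2 in 0. No iron gene rose without WT DMSO 2, upf1 DMSO 1 or either upf1 CHX library, and 1 did without WT DMSO 1. FRE3 was kept in 3 of the 8 fits, ISU2 in 2 and ENB1 in 0.

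Among genes of the cell wall, TIR1, a mannoprotein of the cold-shock family, was at 354 and 399 in WT and at 111 and 124 in upf1, a fall of 1.66 (SE 0.239, adjusted p = 0.00763). TIP1, of the same family, was at 1655 and 1707 in WT and at 989 and 1047 in upf1, a fall of 0.72 (SE 0.141, adjusted p = 0.0177). CWP1 fell by 0.75 (adjusted p = 0.0257) and CCW14 by 0.59 (adjusted p = 0.0449). Each of these 4, chosen for a fall in the same libraries, had both upf1 values under both WT values, which adds no support to the calls. In a set of 18 wall mannoprotein genes put together after these values were seen, 4 fell, beside 0.254% of all protein-coding genes. In this set 3 rose (DAN4, PIR3 and TIR4, all under 4 scaled reads per kb in WT), beside 13.2% of all protein-coding genes. The median of the set was -0.22. The set does not hold NCW1, which rose by 0.76. TIR1 lost its call in 1 of the 8 fits that left out 1 library, without upf1 DMSO 1 (adjusted p = 0.055). TIP1 was kept in 5, CWP1 in 2 and CCW14 in 0 of these fits, with adjusted p up to 0.0839 without upf1 DMSO 1 for TIP1, and up to 0.106 and 0.166 without WT DMSO 1 for CWP1 and CCW14.

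PHO89, a sodium-phosphate cotransporter (chromosome II, 796798 to 798522, minus strand), was at 24.1 and 20.6 in WT and at 6.01 and 7.09 in upf1, a fall of 1.51 (SE 0.239, adjusted p = 0.00969). It lies tail to tail with PCA1 (792849 to 796499, plus strand), which rose by 2.38. PHO89 was the only 1 of 16 phosphate regulon genes to fall (6.25%, beside 0.254% of all protein-coding genes). The median of the list was -0.22, and only 2 of the 16 changes were above 0. With median scaling 10 of the 16 fell, beside 2.77% of all protein-coding genes. HXT4, a hexose transporter, was at 70.2 and 57.1 in WT and at 22.1 and 22.5 in upf1, a fall of 1.43 (SE 0.255, adjusted p = 0.0137). MFA1, 1 of the genes of a-factor, fell by 0.87 (adjusted p = 0.0203), whereas MFA2, the other, did not pass (-0.18, adjusted p = 0.515). The call of MFA1 ended without WT DMSO 1, upf1 DMSO 1 or upf1 DMSO 2, with adjusted p up to 0.0957. GLK1, glucokinase, and MMO1 fell by 0.89 and 0.71, calls kept in 1 and 3 of the 8 fits (adjusted p up to 0.197 and 0.158). PHO89 and HXT4 kept their calls in all fits that left out 1 library except the fit without upf1 DMSO 1 (adjusted p = 0.0614 and 0.0754).

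Several groups stayed near or under the general rise, in which 13.2% of all protein-coding genes rose and 0.254% fell. With median scaling 3.84% of all protein-coding genes rose and 2.77% fell. Glycolysis and fermentation genes had a median of 0.00, and 1 of 23 rose, ADH4 (1.77, adjusted p = 0.0169), while with median scaling 8 fell. The call of ADH4 ended without WT DMSO 2 (adjusted p = 0.068) or upf1 DMSO 1 (adjusted p = 0.0989), and 2 genes of the list rose without upf1 DMSO 2 or with voom. In the environmental stress response 3 of 35 rose and 1 fell, with a median of 0.44, in ribosome biogenesis 4 of 64 rose, with a median of 0.45, and in the respiratory chain 2 of 40 rose, with a median of 0.33. None of these rises in the stress, biogenesis and respiratory lists was left without upf1 DMSO 1 or with median scaling, and without WT DMSO 2 the counts were 1, 0 and 0. Without either upf1 CHX library each count was 1. Of 10 histone genes 0 passed limma in either direction (2 at an unadjusted p below 0.05; voom called 1), and their median was 0.39. With median scaling the medians of these 4 lists (stress, biogenesis, respiratory chain and histones) turned to -0.25, -0.22, -0.39 and -0.34. Of 7 MATa-specific genes 1 fell, MFA1, and the median was -0.18; with median scaling 5 fell and the median was -0.92. Of 4 MATalpha-specific genes 1 rose, SAG1, alpha-agglutinin, from 6.56 and 3.33 scaled reads per kb in WT to 20.8 and 13.1 in upf1 (1.45, adjusted p = 0.0316), a call kept in only 2 of the 8 fits that left out 1 library (adjusted p up to 0.163, without upf1 DMSO 1).

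The same strains in CHX gave a second reading from other libraries, although the variance estimate is shared. Of the 726 protein-coding genes that rose in DMSO, 714 were above 0 in CHX, where 88.5% of all tested protein-coding genes were. Their median change was 1.46 in DMSO and 0.82 in CHX, beside 0.51 and 0.58 over all tested protein-coding genes. Of the 726, 3 passed the test in CHX (0.0544% of protein-coding genes did), COS12 (3.53), YOR302W (1.44) and TCA17 (1.90), a subunit of a trafficking complex. All 14 genes that fell in DMSO were below 0 in CHX, as were 11.5% of all tested, with medians of -0.91 and -0.75. NAM7 was at -2.21 in CHX. These members were chosen for their change in DMSO, so both medians are a description and not a test. The test of the difference itself, the interaction of genotype with CHX, called 0 of 10392 features in limma (944 at an unadjusted p below 0.05, smallest adjusted p = 0.134).

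**Figure D5:**
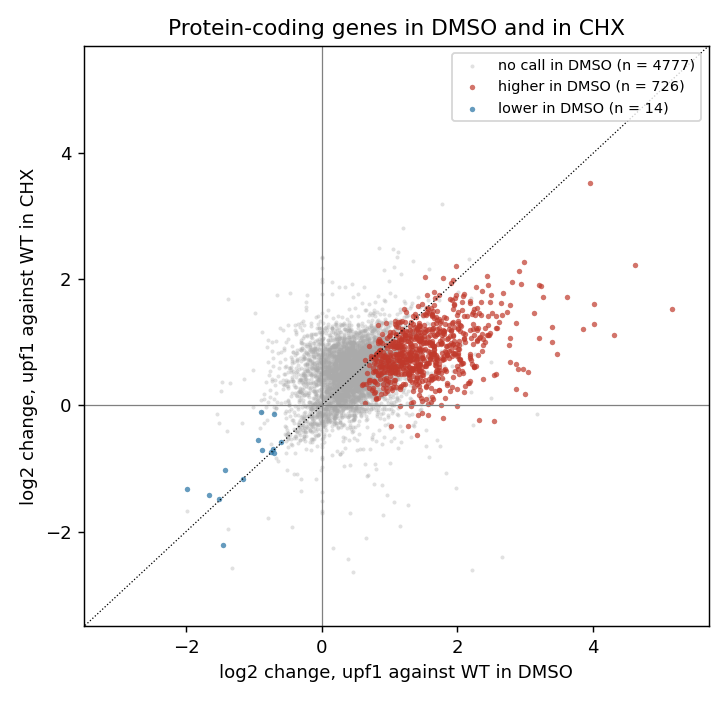
Log2 change of each tested protein-coding gene, upf1 against WT, in DMSO (x) and in CHX (y); red points rose and blue points fell in DMSO, and the dotted line marks equal changes. Most red points lie under the dotted line, with medians of 1.46 in DMSO and 0.82 in CHX, and all 14 blue points lie below 0 on both axes. Over all tested protein-coding genes the medians were 0.51 in DMSO and 0.58 in CHX.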

How the data were processed

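Stranded libraries of Terminator-digested total RNA were analysed, with the 4 DMSO libraries in the comparison and all 8 in the fit. The submitters' processing notes name DESeq2, featureCounts 2.0.0, HISAT2 2.2.0, Trim Galore and the build R64, with no role or order. The authors deposited a signal density per library for 11844 features, whose scaling is not given in the sources used here. The densities resolve into a whole read number times a factor for each library (true of 100.0% of values above 0, within 0.001 reads), from which reads and feature lengths were recovered; 78 features were 0 in every library. No count test was run on them, and voom on the recovered reads was an alternative. A total of 6071 features were matched to RefSeq for R64, the source of coordinates and sequences.

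Density times 1000 was tested with limma 3.58.1 (R 4.3.3) on log2 of the value plus 2, with a variance trend, for 10392 features with a mean of at least 2 over the libraries. The fit had 4 residual and 3.60 prior degrees of freedom, and tests were two-sided at an adjusted p of 0.05. The script was tested on simulated data, where the median estimates had the right sign and lay nearer 0 than the changes put in. Of 200 features changed there, 2 of those raised by a log2 of 2 reached the threshold. Among those lowered by 2, and those raised or lowered by 1, 0 reached it. Among the unchanged features 1 reached it. A feature that did not pass is therefore not shown to be unchanged. Figures were drawn with matplotlib 3.10.9.

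Intervals are exact 95% binomial, floors are 3 reads over a group, and both cover counting error only. The labels call the libraries of a group biological replicates; log values of replicates correlated across features, at 0.935 for WT DMSO and at 0.947 for upf1 DMSO. With 2 libraries a group, p-values rest on few degrees of freedom.

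Genes were named by rule: NAM7 and its neighbours, HIS3 of the deleted markers (the rule also lists LEU2, MET17 and URA3, not analysed here), the 12 largest rises and 6 largest falls past the threshold without overlap, the 8 most abundant called genes, the 2 largest changes each way per non-coding class, the 3 members of smallest p per list, and all members of the lists of NMD factors, classic NMD substrates and pyrimidine synthesis. Other genes named, such as SIT1, FET3, TIP1, CWP1, GLK1, MMO1, DAL3, DUR3, UGA1, DAL5, UGA3, CCS1, ENB1, GCN4, TCA17, MFA2, NFT1 and those of the ORF pairs, were chosen after their values were seen. Members and lists were chosen with earlier results of these data known. Where a called gene is said not to overlap between groups, the call used the same libraries, so the statement is a description and not further support. Reads of near-identical copies (COS, AAD, PAU, HXT and ribosomal protein genes, histones, tRNAs) and of overlapping features on a strand could not be assigned with certainty.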

Additional observations from a re-analysis of the deposited data

How the results depend on the processing

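Of all features, 1524 rose and 41 fell. The counts of rises and falls were 663 and 245 with median scaling, 295 and 79 with quantile normalization, 827 and 27 with a pseudocount of 8, and 0 and 0 with the DMSO libraries alone; leaving out 1 library gave 214 to 1065 rises and 12 to 33 falls. For protein-coding genes, 726 and 14, these were 212 and 153, 122 and 33, 418 rises, 0 and 0, and 84 to 488 rises and 0 to 12 falls. XUT rises, 327, were 200, 75, 162 and 0, and 60 to 240. SUT rises, 233, were 126, 58, 139 and 0, and 44 to 181. NUT rises, 142, were 57, 15, 63 and 0, and 8 to 106. CUT rises, 44, were 9 with quantile normalization, 73 with a pseudocount of 0.5, 17 with 8, 13 with voom, 0 with the DMSO libraries alone, and 6 to 67. tRNA falls, 19, were 32 with median scaling, 10 with voom, 0 with the DMSO libraries alone, and 8 to 18. Fewer samples enter where libraries are left out; for the other changes the cause was not tested. With median scaling the log2 changes of class sums were -0.62 for protein-coding genes, 0.96 for XUTs, 0.92 for SUTs, -0.53 for CUTs, -0.74 for NUTs and -0.81 for snoRNAs, and leaving out 1 library gave -0.01 to 0.25, 1.55 to 1.86, 1.47 to 1.86, 0.07 to 0.35, -0.02 to 0.03 and -0.09 to -0.04. EFB1 (-0.0795) and AHP1 (-0.13) changed sign with median scaling.

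With the replicate number as a block, 1619 features rose and 46 fell. Deviations of same-numbered libraries correlated at -0.04 to 0.12, so the numbers were not taken to pair the samples. Of 132 named features 92 were called, and the calls that ended numbered 92 with the DMSO libraries alone, 59 without upf1 DMSO 1, 36 with median scaling beside the 2 that changed sign, and 6 with voom. Depth limits all genes with few reads, and the median protein-coding gene had 7 in WT DMSO 2.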
